A study of Mus musculus with 12 samples.

Results

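The comparison set Hepa1 cells against primary mouse embryonic fibroblasts (MEFs) that were both kept in control medium. It used all genes of the count table in the 6 libraries whose titles name control medium, of 12 libraries in the series. Hepa1 is a mouse hepatoma line, an established tumour line derived from liver, and its 3 libraries are labelled wild type. The other 3 libraries came from primary MEFs labelled Bach1 knockout (Bach1-/-), and the labels do not say which part of the gene was deleted. Cells of both kinds were grown for 4 days in medium that control immortalised MEFs had conditioned for 48 h. That medium was DMEM with 10% fetal bovine serum, antibiotics and nonessential amino acids, was renewed each day, and carried 2-ME at 0.1 mM and vitamin E at 0.4 mg/mL. The other 6 libraries were the same cells in medium from immortalised MEFs that re-expressed Bach1, labelled ferroptotic. Cell type, Bach1 genotype, and tumour against primary origin changed together between the groups, so their parts in any difference cannot be told apart. Replicates are numbered libraries that the labels do not trace to separate cultures, and the p-values then measure the spread among these libraries only, which may be technical.

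Hepatocytes make most plasma proteins and carry out the urea cycle, gluconeogenesis and bile formation under a network of transcription factors that includes HNF4A, the FOXA factors and CEBPA. Fibroblasts build the connective tissue matrix of collagens and glycoproteins and express mesenchymal regulators such as TWIST1 and PRRX1. BACH1 is a heme-sensing repressor that binds Maf recognition elements, the sites that NRF2 (encoded by Nfe2l2) uses as an activator, and its known targets include heme oxygenase 1 and genes of iron and glutathione metabolism.

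The Hepa1 libraries held 19411930 to 19965610 reads in genes and the MEF libraries 20997713 to 22654613, so that 3 reads in a library, taken here as the floor of detection, correspond to 0.132 to 0.155 on the plain counts-per-million scale (CPM). Levels are CPM normalised across the 6 libraries unless called plain, where the floor averages 0.125 in Hepa1 and 0.169 in MEFs, and a value after ± is an SD over n = 3 libraries, or the SE from edgeR after a log2 difference. A gene at 0 reads in a group is compared through that floor, as a lower bound on the fold, and a group with 1 to 3 reads through a ratio with its counting interval. In every list below, a member read in 1 cell type alone passes the filter on low counts through those libraries, so such members had to differ. Of 14800 genes tested, 12930 (87.4%) differed at an adjusted p under 0.05 in edgeR's quasi-likelihood test, and 12944 (87.5%) had no overlap between the groups. With so broad a difference the counts below use a stricter call, an adjusted p under 0.05 with a difference of at least 2-fold. That call held for 6814 genes (46.0%), of which 2759 (18.6% of all tested) were higher and 4055 (27.4%) lower in Hepa1. The shares of 18.6% and 27.4% are the backgrounds for every 2-fold count of a list below. At 16-fold, 563 genes (3.8%) were higher and 1952 (13.2%) lower. The median gene differed by 0.89 on the log2 scale in either direction. The direction of small differences depended on scaling: with total counts alone, 8806 genes were called higher and 4660 lower at any size, against 6134 (41.4%) and 6796 (45.9%) here, and the median log2 difference over all genes went from -0.07 to 0.50. Differences under 2-fold are therefore given as values, with no direction. The genes named below with a 2-fold call kept their direction and their adjusted p under 0.05 in each of the 15 other settings recomputed for single genes in which they could be tested. Of 6618 genes with a 2-fold call that could be tested between the same cell types in ferroptotic medium, in 6 other libraries, 6491 (98.1%) were called there with the same sign, where the background of calls was 89.4%. Hepa1 replicate 3 of that medium held more reads of MEF genes than its replicates (368 reads of Col1a2 against 23 and 19), and without it the share was 97.8%.

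Bach1 (ENSMUSG00000025612, chr16:87698945-87733346, plus strand) was read in all 6 libraries. It stood at 114, 121 and 116 CPM in Hepa1 and at 99.3, 95.2 and 88.4 CPM in the MEFs labelled knockout. The groups did not overlap, with a log2 difference (Hepa1 minus MEFs, ± SE) of 0.31 ± 0.044 and an adjusted p of 5.42e-08, and the MEF mean was 80.7% of the Hepa1 mean. A count over the whole gene does not check a deletion of part of it, and the libraries were taken as labelled.

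**Figure D1:**
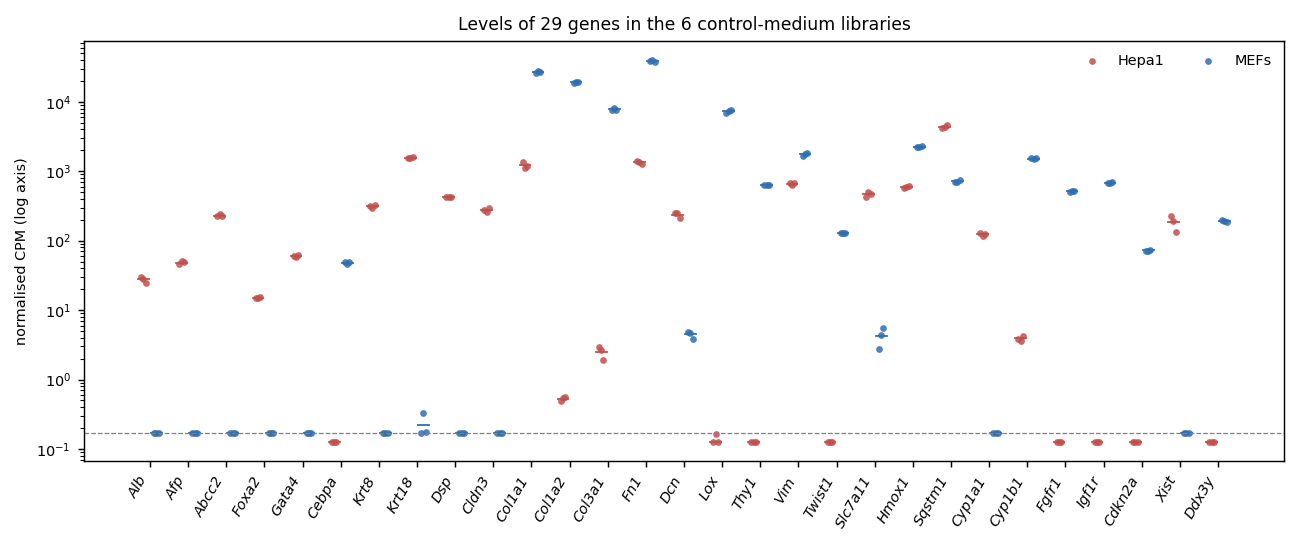
Normalised CPM on a log axis for 29 genes in the 3 Hepa1 libraries (red) and the 3 MEF libraries (blue), where a point is a library and a short line the group mean; values under 3 reads per library are drawn at that floor, near the dashed line. Alb, Krt18 and Cyp1a1 are read in Hepa1 and lie at or near the floor in MEFs, while Thy1, Twist1 and Fgfr1 show the opposite, and Col1a1, Fn1, Vim, Hmox1 and Sqstm1 are read in both.

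Hepa1 carried a narrow selection of liver genes. Of 22 liver transcription factors, 12 had enough reads to be tested, 6 were at least 2-fold higher in Hepa1 and 4 at least 2-fold lower (backgrounds 18.6% and 27.4%). The median log2 difference of the tested members, with levels raised to the floor, was 1.02, beside -0.07 over all genes tested. Gata4, a factor of endoderm and heart development, stood at 59.3, 57.7 and 62.9 CPM in Hepa1 and was represented by 1 read in the MEFs. Foxa2, a pioneer factor that opens liver chromatin, stood at 14.8, 15.01 and 15.5 CPM against 4 reads in all 3 MEF libraries, and its paralogue Foxa1 at 33.1 ± 2.09 against 2.19 ± 0.454 CPM. Hhex, needed for the liver bud, had 442 reads in Hepa1 and 0 in MEFs. These 4 factors were higher in each Hepa1 library than in any MEF library, and Zhx2, a repressor of Afp after birth, and Nr5a2, a regulator of bile acid genes, completed the 6 at 44.3 ± 1.71 against 18.1 ± 0.530 and 1.21 ± 0.351 against 0.485 ± 0.155 CPM. The central hepatocyte factor Hnf4a had 1 read in all Hepa1 libraries together, below what the test takes, and none in MEFs. Cebpa, which drives hepatocyte and adipocyte differentiation, went the other way, with 1 read in Hepa1 and 50.1, 45.5 and 48.95 CPM in MEFs, a ratio of 3457-fold (95% counting interval 619.9 to 136603). Gata6 had 0 reads in Hepa1 and 21.6, 19.7 and 20.5 CPM in MEFs, at least 164-fold higher in MEFs. The other members at least 2-fold lower were Onecut2, at 1.31 ± 0.179 against 21.1 ± 1.03 CPM, and the fatty acid sensor Ppara, at 0.349 ± 0.174 against 1.63 ± 0.377 CPM. RNA was measured from the whole culture, so fewer cells that make a transcript and less of it per cell cannot be told apart.

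Of 44 plasma proteins of the liver, 13 could be tested, 8 were at least 2-fold higher in Hepa1 and 5 lower (backgrounds 18.6% and 27.4%), and 25 had at most 3 reads in every library. Alb, encoding serum albumin, was read at 30.3, 27.9 and 24.7 CPM in Hepa1 and had 0 reads in the MEFs, at least 164-fold higher. Afp, the fetal albumin relative that is a marker of liver tumours, stood at 45.4, 50.7 and 48.9 CPM against 1 MEF read. Both were low for genes that dominate liver RNA: on the scale of RPKM (CPM per kilobase of exon) Alb stood at 11.8 and Afp at 14.3, where Krt18 reached 1089.6 in the same libraries. The iron carrier transferrin (Trf) at 327 ± 10.4 CPM and the ferroxidase ceruloplasmin (Cp) at 326 ± 21.2 CPM were the highest of the list in Hepa1, against 29.1 ± 1.06 and 44.2 ± 1.89 CPM in MEFs. Rbp4, the retinol carrier, stood at 78.1 ± 2.56 against 1.83 ± 0.382 CPM, and complement C3 at 210.3 ± 13.2 against 12.8 ± 1.14 CPM. The 5 members at least 2-fold lower in Hepa1 were Apoe, the lipoprotein ligand, at 1.39 ± 0.164 against 83.01 ± 5.58 CPM, Itih2, which carries hyaluronan, at 3.82 ± 0.726 against 64.5 ± 3.82 CPM, haptoglobin (Hp), kininogen (Kng1) and a fibrinogen chain (Fgg). The last 3 were sparse, with 2, 3 and 18 reads in Hepa1 and 410, 300 and 77 in MEFs. Transthyretin (Ttr) and apolipoprotein A1 (Apoa1) had 0 reads in all 6 libraries.

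Of 40 liver enzymes and transporters, only 8 could be tested, and 4 were at least 2-fold higher and 2 lower in Hepa1, while 28 had at most 3 reads in every library. Abcc2, the pump that exports conjugated bilirubin into bile, stood apart at 223, 239 and 229 CPM in Hepa1 and 0 reads in MEFs, at least 1362-fold higher. Cyp27a1, a sterol hydroxylase of bile acid synthesis, stood at 56.2 ± 0.350 against 4.22 ± 0.0907 CPM, and the urea cycle enzyme Ass1 at 10.98 ± 0.908 against 2.36 ± 0.399 CPM, with Asl of the same cycle at 68.6 ± 1.92 against 20.3 ± 2.80 CPM. The 2 lower were Fah of tyrosine breakdown, at 7.30 ± 0.364 against 26.7 ± 1.80 CPM, and the alcohol dehydrogenase Adh1, at 0.444 ± 0.128 against 2.76 ± 0.173 CPM.

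Many metabolic steps are catalysed by a liver form and a general form of the enzyme. Of the liver forms, Pklr, Fbp1, Pck1, Gys2, Mat1a and Slc2a2 had 0 to 7 reads over the 3 Hepa1 libraries. Others were read: the liver-type glutaminase Gls2 stood at 12.6 ± 0.581 CPM in Hepa1 and 1.60 ± 0.380 in MEFs, a log2 difference of 2.97 ± 0.14, and the liver-type phosphofructokinase Pfkl at 384 ± 14.1 and 204 ± 1.37 CPM, under 2-fold apart. Among general forms, Hk2, the inducible hexokinase, stood at 118, 125 and 133 CPM in Hepa1 and 21.8, 26.3 and 24.9 in MEFs, a log2 difference of 2.36 ± 0.057. The glucose transporter Slc2a1 stood at 272 ± 13.8 against 45.7 ± 2.50 CPM and the aldolase Aldoc at 26.1 ± 1.06 against 0.529 ± 0.196 CPM. Ldhb, the heart-type lactate dehydrogenase subunit, had 0 reads in Hepa1 against 29.04, 29.6 and 30.7 CPM in MEFs, while the muscle-type subunit Ldha stood at 356 ± 15.5 and 327 ± 3.75 CPM. Pygl, the liver glycogen phosphorylase, ran against its name, with 1 read in Hepa1 and 32.8 ± 1.302 CPM in MEFs. Of the 29 isozyme genes 19 were tested, with 5 at least 2-fold higher (Hk2, Slc2a1, Aldoc, Aldoa and Gls2) and 4 lower (Ldhb, Pygl, Pygm and Pygb), shares near those of all genes tested (18.6% and 27.4%). The first of these counts became 10 with total counts alone.

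Short sequence motifs were counted on either strand of the 300 base RefSeq promoter windows, which were in the table for 10165 of the genes tested. The AP-1 motif TGACTCA was held by 43 of 359 genes called at least 16-fold higher in Hepa1 (11.98%) and by 67 of 1374 at least 16-fold higher in MEFs (4.88%), beside 4.59% of all tested genes. The core of the Maf recognition element, GCTGAGTCA, contains the AP-1 motif on its other strand and was held by 6 promoters (1.67%) of the first group, 3 (0.218%) of the second and 0.521% of all. The TEAD motif GGAATG differed little between the groups, at 17.8% and 17.7%, and the box TATAAA stood at 16.2% and 12.2%, beside 14.5% and 8.73% of all tested genes. The CEBP palindrome TTGCGCAA was held by 0 and 1 promoters of the groups. Over all 27025 promoters in the table, tested or not, the shares were 5.95% for AP-1, 0.503% for the Maf core, 16.6% for TEAD and 15.7% for TATAAA. Against that wider background the TEAD and TATAAA shares of genes higher in Hepa1 were close to the background share. With a limit of 4-fold in place of 16-fold, the TATAAA shares were 11.6% and 12.02%. These are letter matches, with no test, and say nothing of binding.

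**Figure D2:**
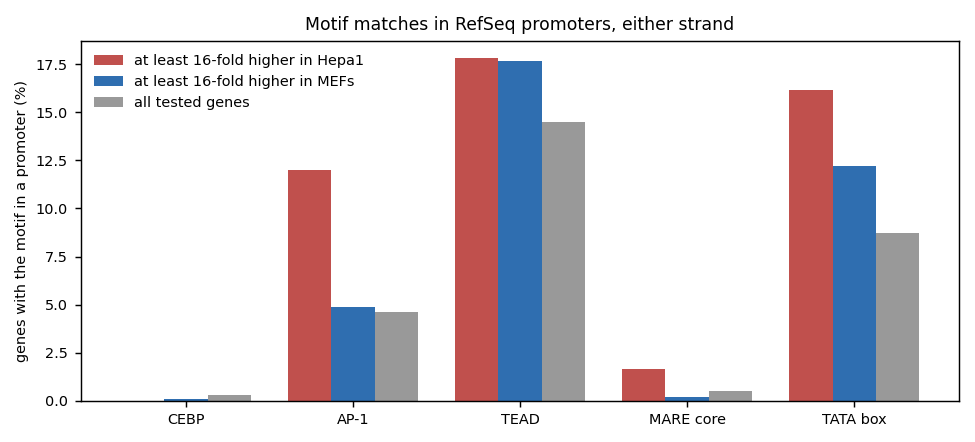
Share of genes (%) whose RefSeq promoter window holds each motif on either strand, for 359 genes at least 16-fold higher in Hepa1 (red), 1374 genes at least 16-fold higher in MEFs (blue) and all 10165 tested genes with a promoter (grey). The red bar stands above the other bars for AP-1, TATAAA and the Maf recognition element (MARE) core, while red and blue nearly meet for TEAD.

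Promoters that hold the Maf core, the site that BACH1 and NRF2 share, are shown for 2 genes higher in Hepa1, Sprr1a and Cxcl10, and for 1 higher in MEFs, F2r, which encodes a thrombin receptor. They were chosen after the values were seen. Sprr1a, a cornified envelope protein of stressed epithelia, stood at 42.4, 46.98 and 49.5 CPM in Hepa1 against 4 MEF reads. Cxcl10, an interferon-induced chemokine, stood at 29.8, 29 and 43.5 CPM with 0 reads in MEFs, and F2r at 601, 592 and 592 CPM in MEFs against 2 Hepa1 reads. The RefSeq windows on GRCm38.p6 are chr3:92485882-92486131, minus strand, for Sprr1a, chr5:92348890-92349139, minus strand, for Cxcl10, and chr13:95618467-95618716, minus strand, for F2r, and the capitals mark the core.
Sprr1a: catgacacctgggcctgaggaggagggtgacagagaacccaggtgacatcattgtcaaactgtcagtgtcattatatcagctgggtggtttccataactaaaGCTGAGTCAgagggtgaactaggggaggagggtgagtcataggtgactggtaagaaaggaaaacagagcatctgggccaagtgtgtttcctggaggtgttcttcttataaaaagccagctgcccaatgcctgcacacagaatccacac
Cxcl10: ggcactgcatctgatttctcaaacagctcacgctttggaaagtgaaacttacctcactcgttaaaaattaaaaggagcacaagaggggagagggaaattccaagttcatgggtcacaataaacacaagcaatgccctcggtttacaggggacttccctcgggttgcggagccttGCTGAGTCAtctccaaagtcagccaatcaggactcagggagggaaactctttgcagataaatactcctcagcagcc
F2r: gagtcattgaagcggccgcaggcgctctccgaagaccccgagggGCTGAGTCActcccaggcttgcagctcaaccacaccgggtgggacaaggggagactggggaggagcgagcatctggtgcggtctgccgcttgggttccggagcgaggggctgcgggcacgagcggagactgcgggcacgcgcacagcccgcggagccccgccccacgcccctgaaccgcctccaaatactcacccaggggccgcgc

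The tested keratins of simple epithelia, and all but 1 of the tested junction genes, were at least 2-fold higher in Hepa1. Keratins 8 and 18 form the intermediate filament pair of simple epithelia such as liver. Krt18 stood at 1528, 1555 and 1614 CPM in Hepa1 and 0.171, 0.325 and 0.174 in MEFs, and Krt8 at 316, 300.1 and 322 CPM against 2 MEF reads. On the per-length scale the pair was unequal in Hepa1, with Krt18 at 1089.6 RPKM and Krt8 at 159.7. Krt7 and Krt20, keratins of ducts and of gut lining, stood at 352 ± 18.9 and 69.5 ± 2.54 CPM, against 41 and 7 reads in MEFs. All 4 tested keratins of 6 listed were at least 2-fold higher in Hepa1, and the list took 0.280% ± 0.00616 of reads there and 0.000105% ± 0.0000101 in MEFs.

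Of 36 epithelial junction and regulator genes, 16 were tested, 15 were at least 2-fold higher in Hepa1 and 1 lower, while 17 had at most 3 reads in every library. A gene read in Hepa1 alone passes the filter through those libraries, so such members had to differ. Desmoplakin (Dsp), which anchors keratin at desmosomes, stood at 421, 429 and 419 CPM in Hepa1 against 5 MEF reads. The tight junction genes Cldn3 and Cgn stood at 278 ± 20.8 and 42.9 ± 0.752 CPM in Hepa1 with 0 reads in MEFs, so they were at least 1643-fold and at least 254-fold higher. Jup, encoding plakoglobin, stood at 445 ± 20.3 against 31.6 ± 0.953 CPM. The 1 member lower in Hepa1 was Cldn2, a pore-forming claudin, with 5 against 361 reads. E-cadherin (Cdh1) had 1 read in Hepa1 and 6 in MEFs, and Epcam 0 and 3, so neither of these surface genes was detected beyond the floor in the hepatoma line. Among 29 keratins and envelope genes of stratified epithelia, 7 were tested and 4 were at least 2-fold higher in Hepa1. These were Sprr1a with its relative Sprr2h, the envelope gene Crct1 and the cell cycle checkpoint gene Sfn, at 46.3 ± 3.59, 1.97 ± 0.573, 1.93 ± 0.326 and 9.04 ± 0.867 CPM against 4, 0, 2 and 97 MEF reads. The reads are totals over the 3 MEF libraries, not CPM, and the log2 difference of Sfn was 2.31. Trp63, a regulator of stratified epithelia, was the 1 member at least 2-fold lower, with 1 read in Hepa1 and 21.4, 22.97 and 22.9 CPM in MEFs.

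Matrix genes were a large part of what the MEFs expressed. The 14 collagens of the list took 5.58% ± 0.117 of MEF reads and 0.173% ± 0.0164 of Hepa1 reads, and the 29 matrix glycoproteins and proteoglycans 9.19% ± 0.225 and 0.356% ± 0.0179. All 14 collagens were tested and all were at least 2-fold lower in Hepa1, with a median log2 difference of -10.02. Col1a1 and Col1a2 encode the chains that assemble into type I collagen, and they differed from each other. Col1a1 stood at 1373, 1130.4 and 1171 CPM in Hepa1 and 25922, 27959 and 27269 in MEFs, so that Hepa1 kept 4.53% of the MEF level (log2 difference -4.46 ± 0.058). Col1a2 stood at 0.499, 0.535 and 0.554 CPM in Hepa1 and 18779, 19364 and 19004 in MEFs, which is 0.00278% (log2 difference -15.12 ± 0.085). Per length, Hepa1 had 187 RPKM of Col1a1 and 0.0426 of Col1a2, where MEFs had 4122 and 1533. In the same Hepa1 libraries, then, 1 chain was kept in part and its partner was near the limit of detection. Col3a1, of type III collagen, kept 0.0322% of the MEF level, at 2.51 ± 0.535 against 7803 ± 361 CPM, and Col5a1, of the collagen that nucleates fibrils, 0.00849%.

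Fibronectin (Fn1), the adhesive glycoprotein that liver cells also secrete, stood at 1405, 1351 and 1270.3 CPM in Hepa1 and 38092, 40195 and 37514 in MEFs, 28.8-fold higher in MEFs. Thbs1, encoding thrombospondin 1, was 157-fold higher in MEFs, at 37424 ± 1601 against 238 ± 14.3 CPM, and the collagen-binding Sparc 35.5-fold, at 9839.6 ± 156 against 277 ± 15.4 CPM. Fbln2, encoding fibulin 2, had 2 reads in Hepa1 against 2873 ± 140.0 CPM in MEFs. Of the 29 members of the list, 28 were at least 2-fold lower in Hepa1. The exception was decorin (Dcn), a small proteoglycan that binds collagen fibrils, at 251, 249 and 212 CPM in Hepa1 and 4.84, 4.66 and 3.89 in MEFs, a log2 difference of 5.73 ± 0.078 and an adjusted p of 5.05e-38. Every Hepa1 library lay above every MEF library for this gene. Other small proteoglycans of that family, Fmod, Omd and Aspn, had 1, 0 and 1 reads in Hepa1 and 455 ± 27.5, 7.51 ± 0.801 and 348 ± 29.9 CPM in MEFs.

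Basement membrane genes were mostly lower in Hepa1. Of 16 tested, 11 were at least 2-fold lower in Hepa1, among them the laminin chain Lama4 with 0 reads against 306 ± 10.8 CPM, and 2 were higher (backgrounds 27.4% and 18.6%). Lamb3, a chain of an epithelial laminin, was one of these, at 6.07 ± 0.673 CPM against 4 reads. Of 21 genes that fold, modify and crosslink collagen, 16 were at least 2-fold lower in Hepa1. Serpinh1, the collagen chaperone HSP47, had 10 reads in Hepa1 against 3049 ± 109 CPM in MEFs, and the crosslinking oxidases Lox and Loxl1 had 8 and 0 reads against 7338 ± 382 and 587 ± 11.3 CPM. Loxl4, another lysyl oxidase, was the 1 member higher in Hepa1, at 192 ± 5.08 against 33.03 ± 2.51 CPM.

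Of 31 mesenchymal transcription factors, 29 were tested and 27 were at least 2-fold lower in Hepa1 (background 27.4%). Of the 31, 8 had 0 reads in Hepa1, and members read in MEFs alone had to be lower. Twist1 had 1 read in Hepa1 and 131, 128 and 129 CPM in MEFs, a ratio of 9278-fold (95% counting interval 1665 to 366514). Prrx1 had 2 reads against 190.4 ± 7.66 CPM, and Ebf3 and Foxd1 had 0 reads against 58.02 ± 2.94 and 115 ± 1.15 CPM. Gli1, a transcriptional target and effector of Hedgehog signalling, was the 1 member higher in Hepa1, at 2.55 ± 0.154 CPM against 2 MEF reads. Of 20 fibroblast surface and identity markers, all tested, 16 were at least 2-fold lower in Hepa1 and 0 higher. Thy1 had 0 reads in Hepa1 and 628, 640.0 and 634 CPM in MEFs, at least 5058-fold higher, and Pdpn 0 reads against 189.5 ± 2.03 CPM. Markers shared with other mesenchymal and tumour cells were read in Hepa1 as well. Vimentin (Vim), the mesenchymal intermediate filament, stood at 679, 637 and 676 CPM in Hepa1 and 1679, 1754 and 1802 in MEFs, a log2 difference of -1.39 ± 0.039. Pdgfrb, a receptor of platelet-derived growth factor, stood at 113, 105 and 111 CPM and 717, 734 and 717 CPM, a log2 difference of -2.72 ± 0.040. Of 18 contractile and actin genes 17 were tested and 14 were at least 2-fold lower in Hepa1, among them smooth muscle actin (Acta2) with 5 reads against 706 ± 40.3 CPM and the myosin Myh10 with 12 against 2149.8 ± 89.4. Desmin (Des) was the 1 member higher in Hepa1, at 12.6 ± 0.351 CPM against 5 reads.

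**Figure D3:**
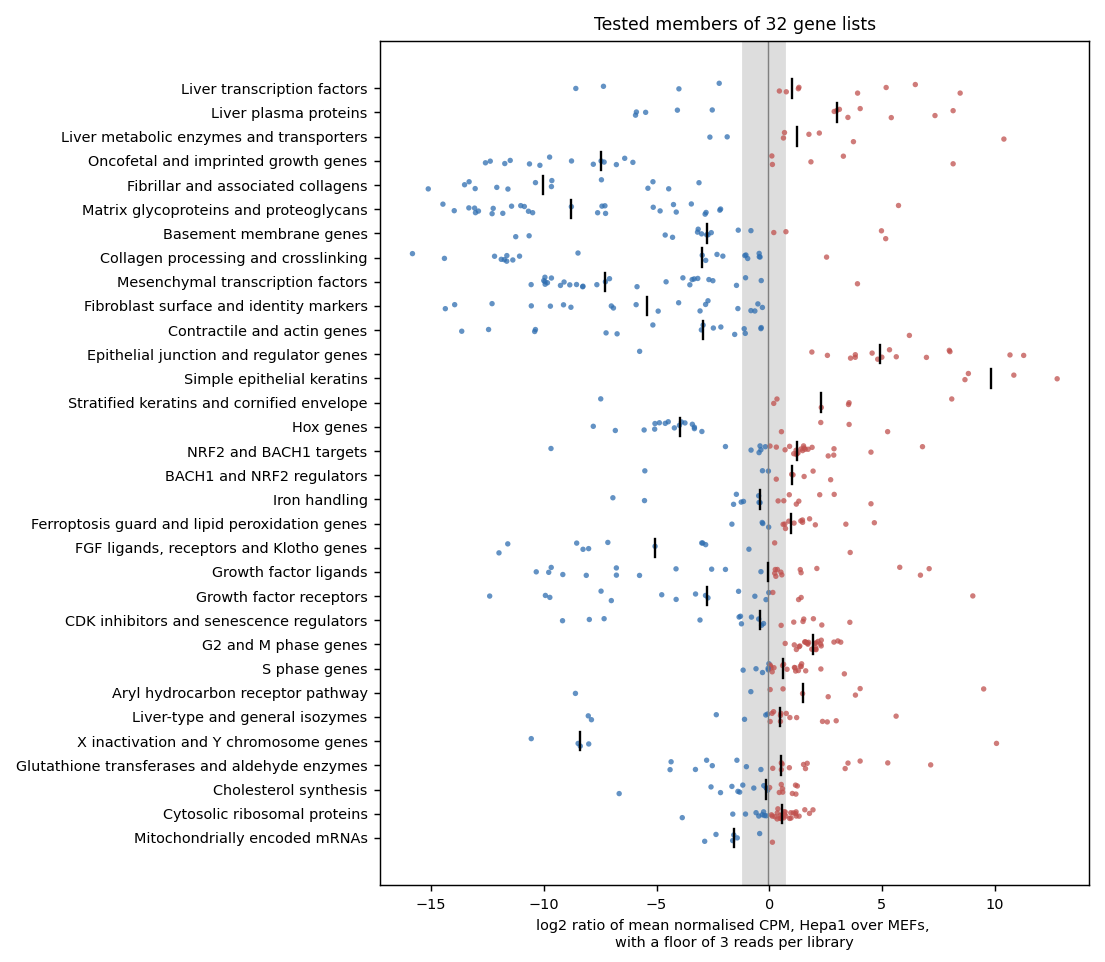
Log2 ratio of mean normalised CPM (Hepa1 over MEFs, means raised to the floor of 3 reads per library) for the tested members of 32 gene lists; a point is a gene, red above 0 and blue below, a black line the list's median, the grey band the middle 50% of all 14800 tested genes and the grey line their median. All 14 collagens lie left of the band, all 4 simple keratins lie to its right, and NRF2 and BACH1 targets lie on both sides.

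Positional identity also differed. Hox genes mark the position of a cell along the body axis, and 20 of 39 were tested, with 16 at least 2-fold lower in Hepa1 and 3 higher. The backgrounds were 27.4% and 18.6%. Of the 39, 19 had 0 reads in Hepa1, and members read in MEFs alone had to be lower. Hoxa7 had 0 reads in Hepa1 against 29.2, 27.2 and 28.01 CPM in MEFs, and Hoxa5 and Hoxb4 stood at 0.819 ± 0.289 and 0.375 ± 0.106 against 27.6 ± 0.790 and 42.7 ± 1.64 CPM. The 3 higher in Hepa1 were of the posterior part of the clusters: Hoxb13 at 6.11, 6.95 and 6.27 CPM with 0 MEF reads, Hoxa10 at 13.9 ± 0.669 against 1.20 ± 0.388 CPM, and Hoxc9 at 0.824 ± 0.286 CPM against 3 reads. Within the Hoxa cluster Hoxa10 was thus higher and Hoxa2 to Hoxa7 were at least 2-fold lower in Hepa1, with Hoxa9 between them at 0.932 ± 0.115 and 0.642 ± 0.138 CPM.

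Oncofetal and imprinted growth genes were mostly lower in Hepa1, with a median log2 difference of -7.47 with levels raised to the floor. Of 22 listed, 19 were tested, 14 were at least 2-fold lower in Hepa1 and 3 higher (backgrounds 27.4% and 18.6%). Of the 22, 6 had 0 reads in Hepa1, and members read in MEFs alone had to be lower. Imprinted genes are expressed from 1 parental copy and many of them act on fetal growth. Peg3 had 1 read in all Hepa1 libraries and 831, 769.9 and 728 CPM in MEFs. The noncoding H19 had 2 reads against 363 ± 51.6 CPM, Igf2 and Ndn 0 reads against 13.8 ± 0.639 and 108 ± 2.95 CPM, Dlk1 1 read against 146 ± 12.5 CPM, and Grb10 5 reads against 670.0 ± 14.3 CPM. The receptor Igf2r was reduced but read, at 7.28, 5.22 and 6.18 CPM in Hepa1 against 1102, 1099 and 1102 in MEFs. The 3 members higher in Hepa1 were Afp, the chromatin protein Hmga1 at 83.6 ± 4.71 against 8.56 ± 0.131 CPM, and the RNA-binding protein Igf2bp1 at 105 ± 1.78 against 29.2 ± 1.90 CPM.

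Genes listed as targets of NRF2 or BACH1 were mostly higher in Hepa1, where Bach1 is labelled wild type, while Hmox1, the classical BACH1 target, was lower. The list does not say which factor acts on each member, so its counts do not measure repression by BACH1. All 28 were tested, 17 were at least 2-fold higher and 2 lower in Hepa1 (backgrounds 18.6% and 27.4%), and the list took 1.41% ± 0.0433 of Hepa1 reads and 0.603% ± 0.0137 of MEF reads. Hmox1, encoding the heme-degrading heme oxygenase 1, stood at 567, 590.0 and 611 CPM in Hepa1 and 2237, 2244 and 2331 in MEFs. Each MEF library lay above each Hepa1 library, with a log2 difference of -1.95 ± 0.039 and an adjusted p of 1.22e-32. Abcc1, a glutathione conjugate pump, was the other member at least 2-fold lower, with 13 reads in Hepa1 against 149 ± 3.65 CPM. Slc7a11, the cystine importer that feeds glutathione synthesis and limits ferroptosis, stood at 428, 509 and 463 CPM in Hepa1 and 2.73, 4.39 and 5.45 in MEFs. That was 111-fold higher, the largest ratio among the 17 at least 2-fold higher, with a log2 difference of 6.80 ± 0.087. Sqstm1, the autophagy adaptor p62, stood at 4185, 4341 and 4675 CPM against 709.5, 707 and 738, 6.13-fold higher in Hepa1. Blvrb, a biliverdin reductase downstream of heme oxygenase, stood at 199 ± 9.90 against 27.2 ± 1.13 CPM, thioredoxin reductase 1 (Txnrd1) at 735 ± 7.33 against 244 ± 2.94, and the glutathione synthesis subunit Gclm at 246 ± 10.9 against 102 ± 2.60.

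The regulators of these genes differed as well. Nfe2l2, encoding NRF2, stood at 252, 263 and 246 CPM in Hepa1 and 121, 121 and 125 in MEFs, 2.08-fold higher. The small Maf partners that NRF2 and BACH1 share were higher in Hepa1, with Maff at 136 ± 8.68 against 20.6 ± 1.45 CPM, Mafk at 176 ± 9.44 against 45.7 ± 0.253 and Mafg at 336 ± 7.74 against 115 ± 9.25. Keap1, the adaptor that marks NRF2 for degradation, stood at 76.7 ± 3.84 CPM in Hepa1 and 94.7 ± 1.59 in MEFs, Bach2, the lymphoid relative of Bach1, at 14.5 ± 0.138 and 7.28 ± 0.699, and Nfe2l1 at 738 ± 7.18 and 759 ± 8.96, none of them past 2-fold. Nfe2l3, an NRF2 relative, had 0 reads in Hepa1 against 5.77 ± 0.925 CPM. Of the 9 regulators 4 were at least 2-fold higher and 1 lower in Hepa1.

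**Figure D4:**
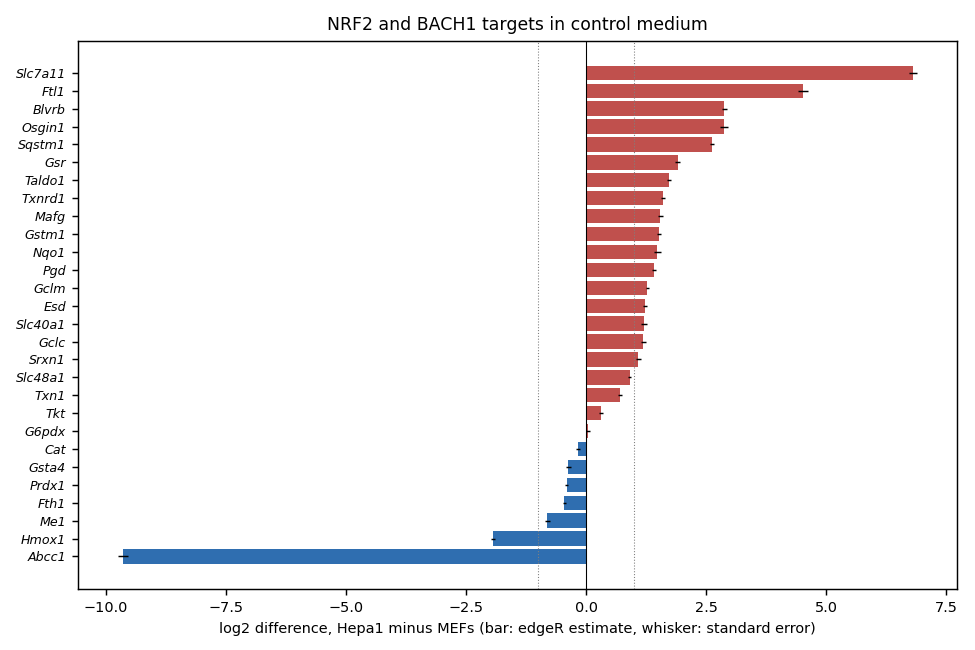
Log2 difference (Hepa1 minus MEFs) of 28 NRF2 and BACH1 targets, with edgeR's estimate as a bar and its standard error as a whisker; dotted lines mark 2-fold. Slc7a11 is farthest to the right, Hmox1 and Abcc1 are the 2 genes past the dotted line on the left, and Fth1 lies between the dotted lines.

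Genes of iron handling differed in both directions. Of 20 genes 17 were tested, 5 at least 2-fold higher and 6 lower in Hepa1, not far from the shares of all genes tested (18.6% and 27.4%), and the median log2 difference was -0.41. The transferrin receptor Tfrc, which takes iron up, stood at 141, 161 and 145 CPM in Hepa1 and 30, 31.96 and 32.7 in MEFs, 4.72-fold higher. The exporter ferroportin (Slc40a1) stood at 66.02, 72.2 and 67.1 against 31.8, 28.8 and 28.8 CPM, 2.30-fold higher. Of the ferritin chains, Fth1, the heavy chain, stood at 1308 ± 42.05 CPM in Hepa1 and 1792 ± 38.7 in MEFs, under 2-fold apart. Ftl1, the light chain, stood at 36.9 ± 1.87 against 1.62 ± 0.164 CPM. Ftl1 has many near-identical copies in the genome among which the counting could divide or drop reads, so its values are uncertain. Steap3, an endosomal iron reductase, was 123-fold lower in Hepa1, at 3.71 ± 0.268 against 456 ± 3.33 CPM, and Bmp6, the signal that induces hepcidin, had 0 reads in Hepa1 against 5.83 ± 0.585 CPM. The other members past 2-fold were Cp and the ferroxidase Heph (29.4 ± 1.57 against 11.9 ± 0.828 CPM) on the higher side, and Slc39a14, Ncoa4, Hfe and Tfr2 on the lower side. Of these Ncoa4, the receptor that delivers ferritin to lysosomes, stood at 2.66 ± 0.444 against 7.31 ± 0.480 CPM, and the count of 6 lower members became 3 with total counts alone.

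Of 19 genes that guard against or feed lipid peroxidation, 16 were tested, 8 were at least 2-fold higher and 1 lower in Hepa1. Gch1, which makes the radical-trapping cofactor tetrahydrobiopterin, stood at 22.9, 24.1 and 25.8 CPM in Hepa1 and 0.626, 1.03 and 1.22 in MEFs, 25.3-fold higher. Scd1, a fatty acid desaturase, stood at 212 ± 5.41 against 20.1 ± 1.23 CPM, and Por, a reductase that can promote lipid peroxidation, at 291 ± 13.9 against 84.2 ± 4.92. Gpx4, which reduces lipid hydroperoxides, stood at 43.4, 44.8 and 47.9 CPM in Hepa1 and 29.3, 30.3 and 29.3 in MEFs, a difference under 2-fold. Dhcr7, whose substrate 7-dehydrocholesterol traps radicals, was the 1 member at least 2-fold lower, at 6.11 ± 0.420 against 19.3 ± 1.09 CPM.

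Receptors and ligands of secreted growth factors differed between the cell types. FGF21 is a hormone of the fibroblast growth factor family that signals through FGFR1 or related receptors together with the co-receptor KLB. Fgfr1 had 1 read in all Hepa1 libraries and stood at 509.6, 515 and 512 CPM in MEFs. Fgfr4, the receptor of hepatocytes, had 1 read in Hepa1 and 20 in MEFs, and Klb 1 and 0, so the co-receptor was not detected beyond the floor in either. Fgf21 itself had 1 read in Hepa1 and 53 in MEFs. Of 19 genes of the family 13 were tested, 10 were at least 2-fold lower in Hepa1 and 1 higher (backgrounds 27.4% and 18.6%). The higher gene was Fgf1 at 2.04 ± 0.491 CPM against 9 MEF reads. Fgf7 and Fgf10, ligands that mesenchyme supplies to epithelium, had 2 and 0 reads in Hepa1 against 391 ± 2.17 and 38.6 ± 1.54 CPM.

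Of 23 other growth factor receptors 18 were tested, 11 were at least 2-fold lower and 3 higher in Hepa1. The backgrounds were 27.4% and 18.6%, and the share of higher receptors lay near its background. Igf1r, the receptor of insulin-like growth factor 1, had 3 reads in Hepa1 and 675, 680.1 and 690.3 CPM in MEFs. Erbb3, a neuregulin receptor of epithelial cells, stood at 88.8, 88.7 and 88.1 CPM against 5 MEF reads. The other 2 higher receptors were Tyro3, at 77.3 ± 0.499 against 29.01 ± 1.03 CPM, and Met, the receptor of hepatocyte growth factor. Met stood at 109 ± 4.64 against 44.3 ± 1.97 CPM, while its ligand Hgf had 0 reads in Hepa1 and 34.6, 36.7 and 33.5 CPM in MEFs. Of 24 ligands, 6 were at least 2-fold higher in Hepa1 (background 18.6%). Among them were Areg with 9.35 ± 1.07 CPM against 0 reads, Pdgfb at 119 ± 4.67 against 0.871 ± 0.311 CPM and Kitl at 326 ± 16.3 against 3.12 ± 0.647 CPM. The 11 lower ligands (background 27.4%) included Bdnf and Pdgfd, with 0 reads against 103 ± 1.76 and 163 ± 6.49 CPM.

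All 24 genes of G2 and M phase were called higher in Hepa1, and 23 of them by at least 2-fold (background 18.6%), with a median log2 difference of 1.95. Mki67, the proliferation marker, stood at 12.7, 10.7 and 8.40 CPM in Hepa1 and 4.67, 3.95 and 4.06 in MEFs, 2.50-fold higher. Top2a, the mitotic topoisomerase, stood at 65.9, 58 and 50.3 against 14.7, 15.1 and 13.6 CPM. Of 24 S phase genes 10 were at least 2-fold higher and 1 lower (the thymidylate synthase Tyms). The higher ones included the replication licensing factors Cdt1, at 38.4 ± 2.32 against 3.82 ± 0.219 CPM, and Mcm7, at 55.3 ± 1.18 against 11.3 ± 0.467. The cell cycle inhibitors were divided. Cdkn2a, the locus of p16 and p19ARF that marks senescent fibroblasts, had 1 read in Hepa1 and 71.9, 71.9 and 73.7 CPM in MEFs, and the adjacent Cdkn2b had 2 reads against 31.8 ± 0.486 CPM. Cdkn1a, the p53 target p21, stood at 488, 495 and 518 CPM in Hepa1 and 238, 233 and 236 in MEFs, a log2 difference of 1.09 ± 0.037. Trp53 itself stood at 184 ± 4.93 against 65.4 ± 1.46 CPM, and its targets Mdm2 at 479 ± 11.6 against 95.1 ± 0.949 and Gdf15 at 115 ± 7.23 against 9.66 ± 0.956. Of the 18 inhibitors and senescence regulators 6 were at least 2-fold higher and 7 lower in Hepa1 (backgrounds 18.6% and 27.4%), where the second count became 4 with total counts alone.

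The aryl hydrocarbon receptor is a ligand-activated factor for which Hepa1 is a standard model, with the cytochrome P450 genes Cyp1a1 and Cyp1b1 as targets. Its gene Ahr stood at 169.5, 159 and 154 CPM in Hepa1 and 25.5, 28.1 and 25.2 in MEFs, 6.12-fold higher. The targets were divided between the cell types. Cyp1a1 stood at 130.1, 117 and 123 CPM in Hepa1 with 0 reads in MEFs, at least 731-fold higher. Cyp1b1 stood at 3.87, 3.62 and 4.26 CPM in Hepa1 and 1535, 1500.2 and 1536 in MEFs, 389-fold lower in Hepa1. Of 12 pathway genes 9 were tested, with 5 at least 2-fold higher (Ahr, Cyp1a1, Ugt1a6b, Aldh3a1 and Nqo1) and 1 lower (Cyp1b1), beside backgrounds of 18.6% and 27.4%. The second count became 2 without any of the 3 Hepa1 libraries or without MEF replicate 2, because the pathway's repressor Ahrr, with 0 reads in Hepa1 and 33 in MEFs, then had enough reads to be tested. Nqo1, a quinone reductase that is also an NRF2 target, stood at 32.3 ± 0.416 against 11.6 ± 0.617 CPM.

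Of 26 glutathione transferases and aldehyde-handling enzymes 21 were tested, 8 were at least 2-fold higher and 7 lower in Hepa1 (backgrounds 18.6% and 27.4%). Gsta3, a transferase that conjugates electrophiles, stood at 71.9, 76.1 and 78.9 CPM in Hepa1 and 0.512, 0.433 and 0.638 in MEFs, 143-fold higher. Its relative Gstt2 went the other way, with 7 reads against 137. Members of these families resemble each other closely, so the division of reads among them is uncertain. Of 22 genes of cholesterol synthesis 21 were tested, with 4 at least 2-fold higher and 7 lower and a median log2 difference of -0.13, and with total counts alone these counts became 8 and 4. These shares, and that of the higher ribosomal proteins given next, lie near the same backgrounds. The pathway's regulator Srebf2 stood at 99.1 ± 4.22 and 108 ± 3.48 CPM. Of 36 cytosolic ribosomal proteins 8 were at least 2-fold higher and 3 lower (21 and 2 with total counts alone), and these have many processed copies, so single members are not given. Of 13 mitochondrially encoded mRNAs 6 had at most 3 reads in every library, 5 of them 0 reads in both groups. Why their reads are missing was not tested, so levels of the other 7 are uncertain and do not describe the whole set. Of these 7, all tested, 5 were at least 2-fold lower in Hepa1 and 0 higher. They were led by mt-Nd6 at 69.4 ± 4.82 against 506 ± 12.8 CPM, a gene that overlaps another on the opposite strand.

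Markers of other cell types were checked in both cultures. The 12 macrophage markers summed to 43.2 to 48.9 plain CPM in Hepa1 and 7.87 to 9.89 in MEFs, of which 4 could be tested, led by the lysosomal Cd68, and the defining Ptprc, Aif1 and Tyrobp had 0 reads in all 6 libraries. The 10 endothelial markers summed to 77.6 to 78.5 plain CPM in Hepa1 and 54.5 to 61.4 in MEFs. The normalisation used for the other levels lowers Hepa1 against MEFs by 0.57 on the log2 scale. The direction of the difference between the endothelial sums therefore depends on scaling. These markers were led by the junction gene Esam in Hepa1 (4575 reads) and the factor Erg in MEFs (3484 reads), with the defining Cdh5, Tie1 and Emcn at 0. The 10 cholangiocyte and progenitor markers summed to 608 to 649.9 plain CPM in Hepa1 and 3537 to 3892 in MEFs, through Krt7 in Hepa1 and the secreted Spp1 in MEFs. Sox9 stood at 103 ± 6.58 against 213 ± 1.31 CPM, lower in Hepa1. Sctr, and Onecut1, which is also among the liver transcription factors listed, were at 0. The 10 stellate cell and pericyte markers summed to 14.9 to 15.8 plain CPM in Hepa1 and 59.3 to 67.6 in MEFs, and Lrat, which defines stellate cells, was at 0. The 10 skeletal muscle markers summed to 16.4 to 17.2 plain CPM in Hepa1 and 0.283 to 0.810 in MEFs, with the regulators Myod1, Myog, Pax3 and Pax7 at 0. Desmin (Des) is on both the stellate and the muscle list and made up most of both sums in Hepa1, so these are not separate signals. The 10 adipocyte markers summed to 520.2 to 559.9 plain CPM in Hepa1 and 65.2 to 69.1 in MEFs, through the lipase Lpl in Hepa1, while Adipoq and Plin1 had 1 read each in either group. The other tested adipocyte markers went the other way, the fatty acid carrier Fabp4 with 3 Hepa1 reads against 23.3 ± 2.08 CPM in MEFs and the regulator Pparg with 0 reads against 22.2 ± 0.760 CPM. The 10 neural markers summed to 1.15 to 1.32 plain CPM in Hepa1 and 39.2 to 44.1 in MEFs, with Map2 leading in MEFs and Sox10 and Snap25 at 0. The markers called defining here had at most 1 read over the 3 libraries of a group. They were given that name after their values were seen, while Krt7, Sox9 and Erg of the same lists were well read. Their lack of reads therefore does not show that a cell type was absent. The part of the remaining members in the differences above was not tested.

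The sex chromosomes separated the cultures. Xist, the noncoding RNA that coats an inactive X chromosome, stood at 224, 192 and 135 CPM in Hepa1 and had 4 reads in MEFs. The 3 Hepa1 libraries differed from each other more than is typical here, where the biological coefficient of variation over all genes was 4.04%, and the groups did not overlap. Xist overlaps the antisense gene Tsix, and the sources do not state whether the counting used strand. The 4 Y chromosome genes Ddx3y, Eif2s3y, Kdm5d and Uty had 0 reads in Hepa1 and 189.8 ± 6.05, 44.9 ± 0.907, 42.01 ± 2.74 and 32.4 ± 1.68 CPM in MEFs.

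Many genes were read in only 1 of the cell types. With at most 3 reads in every library of the other and a mean of at least 5 CPM, 872 protein-coding genes were seen in MEFs only and 100 in Hepa1 only. Some lay side by side: 19 runs of 3 or more neighbouring expressed genes were seen in MEFs only and 1 in Hepa1 only. On chromosome 4 (chr4:89274471-93335511) the run Cdkn2a, Cdkn2b and Tusc1 had 1, 2 and 0 reads in Hepa1 against 72.5 ± 1.03, 31.8 ± 0.486 and 8.28 ± 0.927 CPM in MEFs. Mtap, a gene of methionine salvage beside Cdkn2a on its other side, singled out after its values were seen, was read in both, at 39.5, 38.1 and 35.6 CPM in Hepa1 and 97.6, 95.9 and 97.4 in MEFs. A second run on that chromosome (chr4:84275095-86428385) held Bnc2, Cntln and Adamtsl1, with 0, 0 and 2 Hepa1 reads against 6.04 ± 0.565, 30.1 ± 3.54 and 129 ± 7.38 CPM. On chromosome 5 (chr5:12383385-16620152) the semaphorins Sema3d, Sema3a and Sema3e, Cacna2d1 and Hgf had 0 to 5 reads in Hepa1 and between 33.5 ± 1.78 and 118 ± 5.47 CPM in MEFs. Runs on the X chromosome included the Armcx genes (chrX:134686519-134809221), with 0 Hepa1 reads of Armcx2 against 280.1 ± 3.61 CPM. The run seen in Hepa1 only was of the reproductive homeobox genes Rhox2f, Rhox2h and Rhox5 (chrX:37571405-37808876), at 7.98 ± 0.539, 16.3 ± 1.01 and 60.5 ± 3.16 CPM with 0 reads in MEFs, where near-identical copies make the split between the Rhox2 genes uncertain. From RNA, a lost stretch of DNA and a silent one cannot be told apart. The counts moved with the limits set: with 0 reads in every library of the other cell type, 419 genes were seen in MEFs only and 37 in Hepa1 only.

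**Figure D5:**
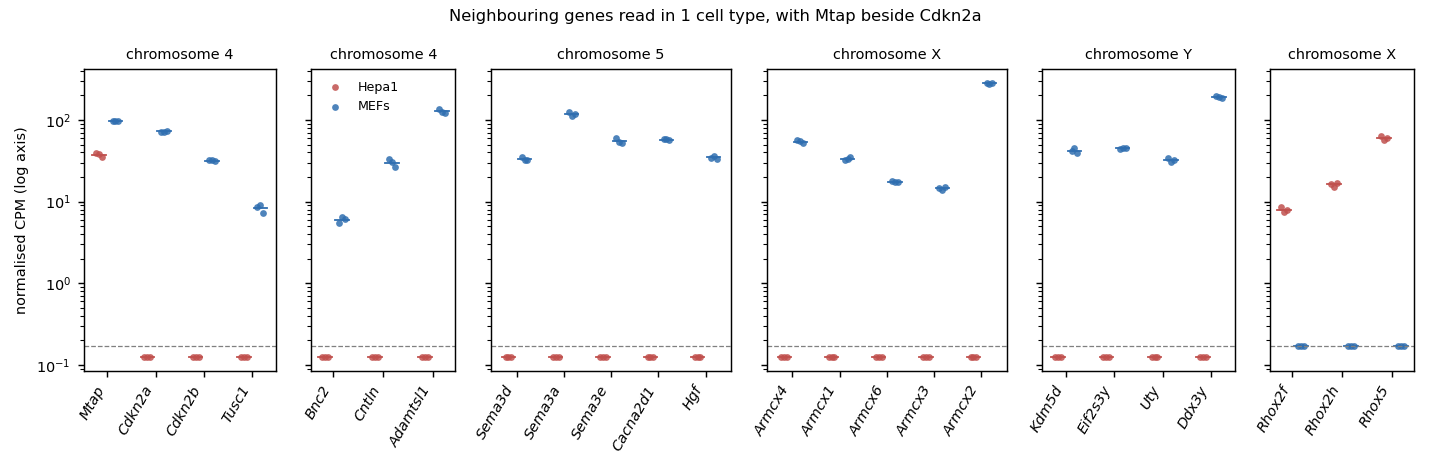
Normalised CPM on a log axis for genes in 5 runs of neighbours read in MEFs only and 1 run read in Hepa1 only. Genes are in chromosomal order within a panel, with Mtap placed before Cdkn2a in the left panel. A point is a library (red for Hepa1, blue for MEFs) and a short line the group mean. Values under 3 reads per library are drawn at the floor. Mtap is read in both cell types, while Cdkn2a, Cdkn2b and Tusc1 lie at the floor in all 3 Hepa1 libraries.

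Whole chromosomes also differed in their typical gene. Medians of the log2 difference were set against the median over all tested genes, which removes the effect of scaling. The 5 tested genes of chromosome Y and the 14 of the mitochondrial genome lay at -12.71 and -1.43. Among chromosomes 1 to 19 and X, the median was lowest on chromosome 9, at -0.48 over 787 genes. Chromosome 14 at -0.44 over 502 genes and chromosome 7 at -0.37 over 1070 genes came next. The median was highest on chromosome 1 at 0.31 over 880 genes, chromosome 10 at 0.30 over 731 genes and chromosome 11 at 0.29 over 1169 genes. On chromosome 14, 61.2% of tested genes were called lower in Hepa1 and 26.5% higher, against 34.8% and 51.4% on chromosome 1. Genes of a chromosome are not independent replicates, and these medians are given with no test.

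The genes with the largest ratios and the highest levels were mostly members of the groups above. In Hepa1 the 10 largest, among genes with at least 20 CPM, were of Krt18, Dsp, Krt8, Cldn3, Dsg2, Abcc2, Coro2a, Cyp1a1, Igsf11 and Fads6. Those not yet described are the desmosomal cadherin Dsg2, with 231 ± 4.90 CPM against 1 MEF read, the actin regulator Coro2a, the adhesion gene Igsf11 and the desaturase-like Fads6, at 147 ± 2.42, 123 ± 5.55 and 148 ± 5.15 CPM against 3, 1 and 11 reads. In MEFs they included Lox, Col1a2, Fbln2, the chemokine Cxcl12 at 11732 ± 181 CPM against 22 Hepa1 reads, the growth factor carrier Igfbp2 at 6906 ± 92.6 against 17, and the pattern recognition protein Ptx3 at 2682 ± 94.4 against 6. Per length, the highest protein-coding genes in Hepa1 were the elongation factor Eef2 at 2896 RPKM, the endoplasmic reticulum chaperone Hspa5 at 1536 and the mitochondrial gene mt-Nd1 at 1324, followed by Sqstm1 at 1311 and Hsp90ab1 at 1134. In MEFs they were the matrix Gla protein Mgp at 6275 RPKM, Thbs1 at 6162 and Col1a1 at 4122, followed by Igfbp2 at 3739 and Fn1 at 3303. Mgp, an inhibitor of calcification that led in MEFs, had 42 reads in Hepa1.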

How the data were processed

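Raw read counts per gene were deposited for 12 libraries, and those of the 6 libraries in control medium were compared. Per the labels' protocols, the input to a library was 100 ng of RNA and the kit was NEBNext Ultra II. The submitters' processing notes name STAR 2.7.10a and HTSeq 0.9.1, with Trimmomatic 0.39 and FastQC 0.11.9, and genome build GRCm38 (mm10). Which annotation release was used, and whether counting used strand, is not given in the sources used here. Deposited counts were used as they stand, with the 5 HTSeq summary lines left out (2.00% to 2.58% of reads in no gene and 3.67% to 4.03% ambiguous). Gene names, lengths and positions came from GENCODE M21, which named 55227 of 55487 IDs. Of the 14800 genes tested 42.1% overlap a gene on the opposite strand, so their reads could belong to either.

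Groups and replicate numbers came from the sample titles. Genes were filtered with filterByExpr, scaled with TMM and tested with edgeR 4.0.16 (R 4.3.3), using the quasi-likelihood F-test with Benjamini-Hochberg adjustment over all genes tested. Counts were also simulated for 13200 genes, with MEF means in both groups and 50 genes changed at each fold, in either direction. Of genes changed by 1.25-, 1.5-, 2- and 4-fold, 82%, 80%, 96% and 100% were recovered, and 7.25% of 193 calls were false. With so few changed genes, the simulation cannot test calls or scaling where 87.4% of genes differ, as between these groups. Levels are TMM-normalised CPM, and RPKM is that value per kilobase of merged exons. Shares of reads use plain counts. Counting intervals are exact at 95% and, like the floor of 3 reads, cover counting error only. Replicates differed beyond sampling noise (chi-square per degree of freedom 1.93 to 4.13), so none was a duplicate. Promoters came from RefSeq for GRCm38.p6 (250 bases before to 50 after a start), searched on both strands. Results for some list members and promoter motifs are not reported here.

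The members and gene lists were chosen with earlier results of these data known. Named genes were a fixed set of cell identity, BACH1, FGF and cell cycle genes, the 10 largest ratios in each direction among genes with at least 20 CPM, the 10 highest RPKM in each cell type, up to 4 members of each list with the largest difference and 2 with the highest level, all isozyme, Hox, sex chromosome and BACH1 regulator genes, genes in runs, and the 5 largest interactions each way. The exceptions of a list, the defining markers of other cell types, single examples such as Apoe, C3, Areg, Pdgfb, Kitl, Met, Trp53, Mdm2, Txnrd1, Gclm and Nqo1, and Mtap and F2r were chosen after their values were seen. Alternatives were other scalings, filters and tests (DESeq2 1.42.0, limma 3.58.1), a replicate block, leaving out each library, and other limits for genes seen in 1 cell type.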

Additional observations from a re-analysis of the deposited data

Results flagged for a closer look

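The difference between Hepa1 and MEFs itself differed between the control and the ferroptotic medium for 6911 genes (44.2% of 15627 tested with edgeR, interaction at an adjusted p under 0.05, n = 3 libraries in each of 4 groups). The 10 named genes with the largest such interactions are given as the log2 difference (Hepa1 minus MEFs) in control medium minus that in ferroptotic medium. In each of them 1 cell type had few or no reads, so the fitted values depend on the prior count and are no bound.

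The interaction was 8.20 for the chemokine gene Cxcl10, which had 717, 705 and 1021 reads in Hepa1 in control medium and 95, 55 and 61 in ferroptotic medium, beside 0 MEF reads in control medium and 1, 1 and 6 in ferroptotic medium. It was 4.88 for Ccl2, another chemokine, with 1531, 1774 and 1732 Hepa1 reads in control medium against 263, 245 and 224. Both chemokines were thus lower in each Hepa1 library in ferroptotic medium. The interaction was 5.76 for Cldn3 and 4.65 for Abcc2, each with 0 MEF reads in control medium and at most 9 in any MEF library of ferroptotic medium. Hepa1 reads of Cldn3 were 6255 to 7012 in control medium and 3691 to 3946 in ferroptotic medium. Those of Abcc2 were 5369 to 5805 and 3348 to 3690. The interaction was 4.30 for the fatty acid carrier Fabp4, with 3 Hepa1 reads in all in control medium and 0 in ferroptotic medium. Its MEF reads were 372, 430 and 437 in control medium and 951, 1077 and 1223 in ferroptotic medium.

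Negative interactions belonged to genes of MEFs: -6.31 for the Wnt antagonist Sfrp1, -6.28 for Fbln2, -6.23 for Thy1, -5.93 for the oxidase Nox4 and -5.86 for the collagen receptor Itga11. In Hepa1 replicate 3 of ferroptotic medium these genes had 11, 55, 17, 6 and 57 reads, against 0 to 5 in the other 2 libraries of that group. Without that library the values were -3.62 for Sfrp1 (adjusted p = 0.16), -3.78 for Fbln2, -2.97 for Thy1 (adjusted p = 0.21), -4.998 for Nox4 and -3.13 for Itga11, and 4.28 for Fabp4 (adjusted p = 0.073), all from edgeR. In MEFs, reads of Sfrp1, Fbln2, Thy1, Nox4 and Itga11 were lower in each library of ferroptotic medium than in any library of control medium. For Fbln2 the MEF reads were 47643, 54787 and 50682 in control medium and 16790, 16689 and 20344 in ferroptotic medium.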

How the results depend on the processing

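Of 212 named genes, those past 2-fold kept their direction and an adjusted p under 0.05 in 15 other settings. With total counts alone the log2 differences of 5 genes under 2-fold turned positive, to 0.11 for Fth1, 0.26 for Keap1, 0.53 for Nfe2l1, 0.44 for Srebf2 and 0.14 for mt-Nd1. With that scaling 4902 genes were at least 2-fold higher, and list counts became 3 lower for iron handling, 4 lower for CDK inhibitors, 0 lower for S phase, 10 higher for isozymes, 8 higher and 4 lower for cholesterol synthesis and 21 higher for ribosomal proteins. Without the filter on low counts 920 genes were at least 16-fold higher, and lower counts became 8 for plasma proteins, 4 for liver enzymes, 2 for epithelial junctions, 3 for stratified epithelia (9 higher), 27 for Hox, 2 for ferroptosis and 2 for the aryl hydrocarbon receptor. That last count ranged from 1 to 2 when a library was left out, and was 2, as was stratified epithelia, with all 12 libraries in the fit. A test against 2-fold (glmTreat) called 2322 higher and 3753 lower. Leaving out a library gave 6050 to 6147 higher and 6746 to 6914 lower, and DESeq2 gave 5672 and 6718. Genes seen in MEFs or Hepa1 only numbered 419 and 37 with 0 reads required (6 runs in MEFs), 1305 and 229 at 1 CPM (52 and 2 runs) and 520 and 43 at 20 CPM (4 and 0 runs). The cause of these shifts beyond the settings themselves was not tested.

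Deviations of same-numbered libraries from their group means correlated at 0.0039, -0.0056 and 0.082, beside -0.067 to 0.061 for differently numbered ones. Such low correlations between different cell types do not settle whether the numbers pair cultures. With the number as a replicate block 6113 genes were higher and 6791 lower, and not every library correlated best with its own number.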
